A study of Mus musculus with 18 samples.

Results

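The neutrophil granule genes described here are 10 genes whose products fill the granules or the cytosol of neutrophils. They were named as a list (Elane, Mpo, Prtn3, Ctsg, Ltf, Lcn2, Camp, Ngp, S100a8 and S100a9) and all 10 were found among the 21938 nuclear protein-coding genes of the GENCODE vM21 annotation (mm10). The list was chosen by earlier readings of the same peak lists, the H3K27me3 window coverages of Camp and Lcn2 among them, so the peaks at these genes are given as a description with no test.

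The cells were bone marrow-derived macrophages (BMDM), grown for 7 days from mouse marrow in medium with L929 cell supernatant and left untreated. All mice were male. WT mice carry the strain label C57BL6, mdx mice the label Dmdmdx-4Cv, a line with a mutation in the dystrophin gene, and mdxTLR4-/- mice, which carry a dystrophin mutation and lack TLR4, the label Bl6/Bl10. The strain label differs between genotypes. The methods place the WT, mdx and TLR4-/- lines on C57BL/6J, and for the mdxTLR4-/- cross they refer to earlier work. Each genotype had 2 H3K27me3 ChIP libraries with 2 inputs. H3K27ac was profiled in 2 libraries of WT, 2 of mdx and 1 of mdxTLR4-/- BMDM, with 1 input of the label C57BL6. The labels give the ages of the ChIP samples as 12 to 13 weeks (WT), 14 to 15 weeks (mdx) and 16 to 17 weeks (mdxTLR4-/-) for H3K27me3. For H3K27ac they give 19 to 20 weeks, 21 to 22 weeks and 23 weeks, an order that follows the order of the samples. The H3K27me3 inputs are labelled 6 to 7 weeks (WT), 8 to 9 weeks (mdx) and 10 to 11 weeks (mdxTLR4-/-), and the H3K27ac input 18 weeks. The labelled ages rise in the order of the samples throughout, and the inputs are labelled younger than the ChIP samples of the same mark. Whether the labels give the true ages of the mice could not be checked here. Labelled age and labelled strain thus differ between the genotypes and cannot be told apart from them. The authors merged the replicates before peaks were called, so each mark and genotype has 1 peak list and no spread between mice can be given. Intervals below are exact 95% intervals and cover counting error only. A peak in a bulk culture also cannot tell a mark on a share of the cells from a weaker mark on every cell.

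H3K27me3 is a mark laid down by Polycomb repressive complex 2 over silent genes, often in domains of several kilobases, and H3K27ac marks active promoters and enhancers. The granule genes are switched on in waves as a granulocyte matures in the marrow: the primary (azurophil) granule genes in promyelocytes, then the secondary (specific) granule genes in myelocytes. A macrophage comes from a shared myeloid progenitor, and the granule genes are low or silent in a resting macrophage. S100A8 and S100A9 form calprotectin, which is released from damaged or activated myeloid cells and is a known ligand of TLR4.

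The sequences before the starts of 6 of these genes are printed here because they differ in whether a called peak lay over them. Each is the 250 bases before the RefSeq start of the gene in GRCm38.p6, read 5′ to 3′ on the strand of the gene, and capitals mark the CpG dinucleotides, the feature that most often accompanies Polycomb domains at promoters.
Mpo (chr11:87793534-87793783, plus strand): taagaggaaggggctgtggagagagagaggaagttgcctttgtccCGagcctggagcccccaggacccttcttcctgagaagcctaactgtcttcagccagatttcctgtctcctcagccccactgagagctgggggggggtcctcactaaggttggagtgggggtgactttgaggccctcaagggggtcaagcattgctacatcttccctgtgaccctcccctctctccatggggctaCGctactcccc
S100a9 (chr3:90695722-90695971, minus strand): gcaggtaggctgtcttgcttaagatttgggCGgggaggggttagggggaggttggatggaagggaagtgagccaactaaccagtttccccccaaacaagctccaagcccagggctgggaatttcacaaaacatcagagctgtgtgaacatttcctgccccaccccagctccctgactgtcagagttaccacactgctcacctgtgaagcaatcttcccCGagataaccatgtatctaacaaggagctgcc
Lcn2 (chr2:32387740-32387989, minus strand): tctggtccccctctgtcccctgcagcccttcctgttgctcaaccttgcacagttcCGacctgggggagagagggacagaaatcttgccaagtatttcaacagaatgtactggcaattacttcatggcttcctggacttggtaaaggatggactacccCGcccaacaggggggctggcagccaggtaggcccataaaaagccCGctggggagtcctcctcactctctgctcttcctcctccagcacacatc
Ctsg (chr14:56102575-56102824, minus strand): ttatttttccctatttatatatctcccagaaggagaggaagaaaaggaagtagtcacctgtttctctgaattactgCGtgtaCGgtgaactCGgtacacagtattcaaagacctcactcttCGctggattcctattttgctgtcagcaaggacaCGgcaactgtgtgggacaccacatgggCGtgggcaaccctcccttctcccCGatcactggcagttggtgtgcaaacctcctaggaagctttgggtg
Prtn3 (chr10:79879417-79879666, plus strand): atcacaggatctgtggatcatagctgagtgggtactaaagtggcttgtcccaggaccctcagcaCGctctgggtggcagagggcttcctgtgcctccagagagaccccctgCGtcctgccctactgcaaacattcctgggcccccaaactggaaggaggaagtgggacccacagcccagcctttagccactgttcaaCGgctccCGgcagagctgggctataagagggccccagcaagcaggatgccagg
Elane (chr10:79886062-79886311, plus strand): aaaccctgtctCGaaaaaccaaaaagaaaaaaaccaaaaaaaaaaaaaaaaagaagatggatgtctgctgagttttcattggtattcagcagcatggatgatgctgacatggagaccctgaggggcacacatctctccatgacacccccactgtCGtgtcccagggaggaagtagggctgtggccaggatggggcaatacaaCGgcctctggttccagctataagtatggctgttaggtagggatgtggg
Together with the 50 bases after the start, the Mpo and S100a9 promoters lay wholly under an H3K27me3 peak in all 3 genotypes, with 300 of 300 bases. The Lcn2 promoter did so in mdx BMDM, where all 300 bases were under a peak, and had 0 bases under a peak in the other lists. At Ctsg 76 of the 300 bases were under the WT peak. At Prtn3 184 bases were under an H3K27ac peak of mdxTLR4-/- BMDM, and at Elane no base was under any peak. The 300 bases held 2 CpG at Mpo and 2 at S100a9, the lowest counts of the 10 genes, and 8 at Ctsg, the highest. The median over 32851 RefSeq promoters was 7.00 CpG, over the promoters that touched an H3K27me3 peak 8.00 in each genotype, and over those that touched an H3K27ac peak 21.0 in WT BMDM. The promoters of Mpo and S100a9 were thus poor in CpG for promoters under an H3K27me3 peak.

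Short motifs of myeloid factors were searched on both strands of these 300 bases. AGGAAG, the core bound by PU.1, was found in 8 of the 10 promoters (3 times each in Mpo, Ctsg and Lcn2, and not in Ngp or S100a9) and in 35.4% of all promoters. TTGCNNAA, a core of C/EBP sites, was found in Ltf, Lcn2 and S100a9 once each and in Ngp 2 times, against 10.8% of all promoters. TGTGGT, the RUNX core, was found in Ctsg, Ltf and S100a9 (16.8% of all promoters), and TATAAA in Ctsg, S100a8 and S100a9 (13.6%). These are matches of letters and no evidence of binding.

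Over the lists of all 3 genotypes together, 3 of the 10 genes (Elane, Ltf and Ngp) had no peak of either mark, beside 23.8% of protein-coding genes. The window of a gene reached 5 kb upstream of its body and 1 kb beyond the 3′ end, and a peak counted from 1 bp. By this count 4 genes held an H3K27me3 peak in WT BMDM (Mpo, Ctsg, Camp and S100a9), beside 38.4% of protein-coding genes. In mdx BMDM 5 genes held one (Mpo, Lcn2, Camp, S100a8 and S100a9), beside 41.3%, and in mdxTLR4-/- BMDM 3 genes did (Mpo, Prtn3 and S100a9), beside 39.0%. For H3K27ac 0 genes held a peak in WT BMDM, 0 in mdx BMDM and 1 (Prtn3) in mdxTLR4-/- BMDM, beside 39.9%, 34.5% and 36.5% of protein-coding genes. The counts for H3K27me3 were therefore near the background in each genotype. The counts for H3K27ac lay below it.

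**Figure D1:**
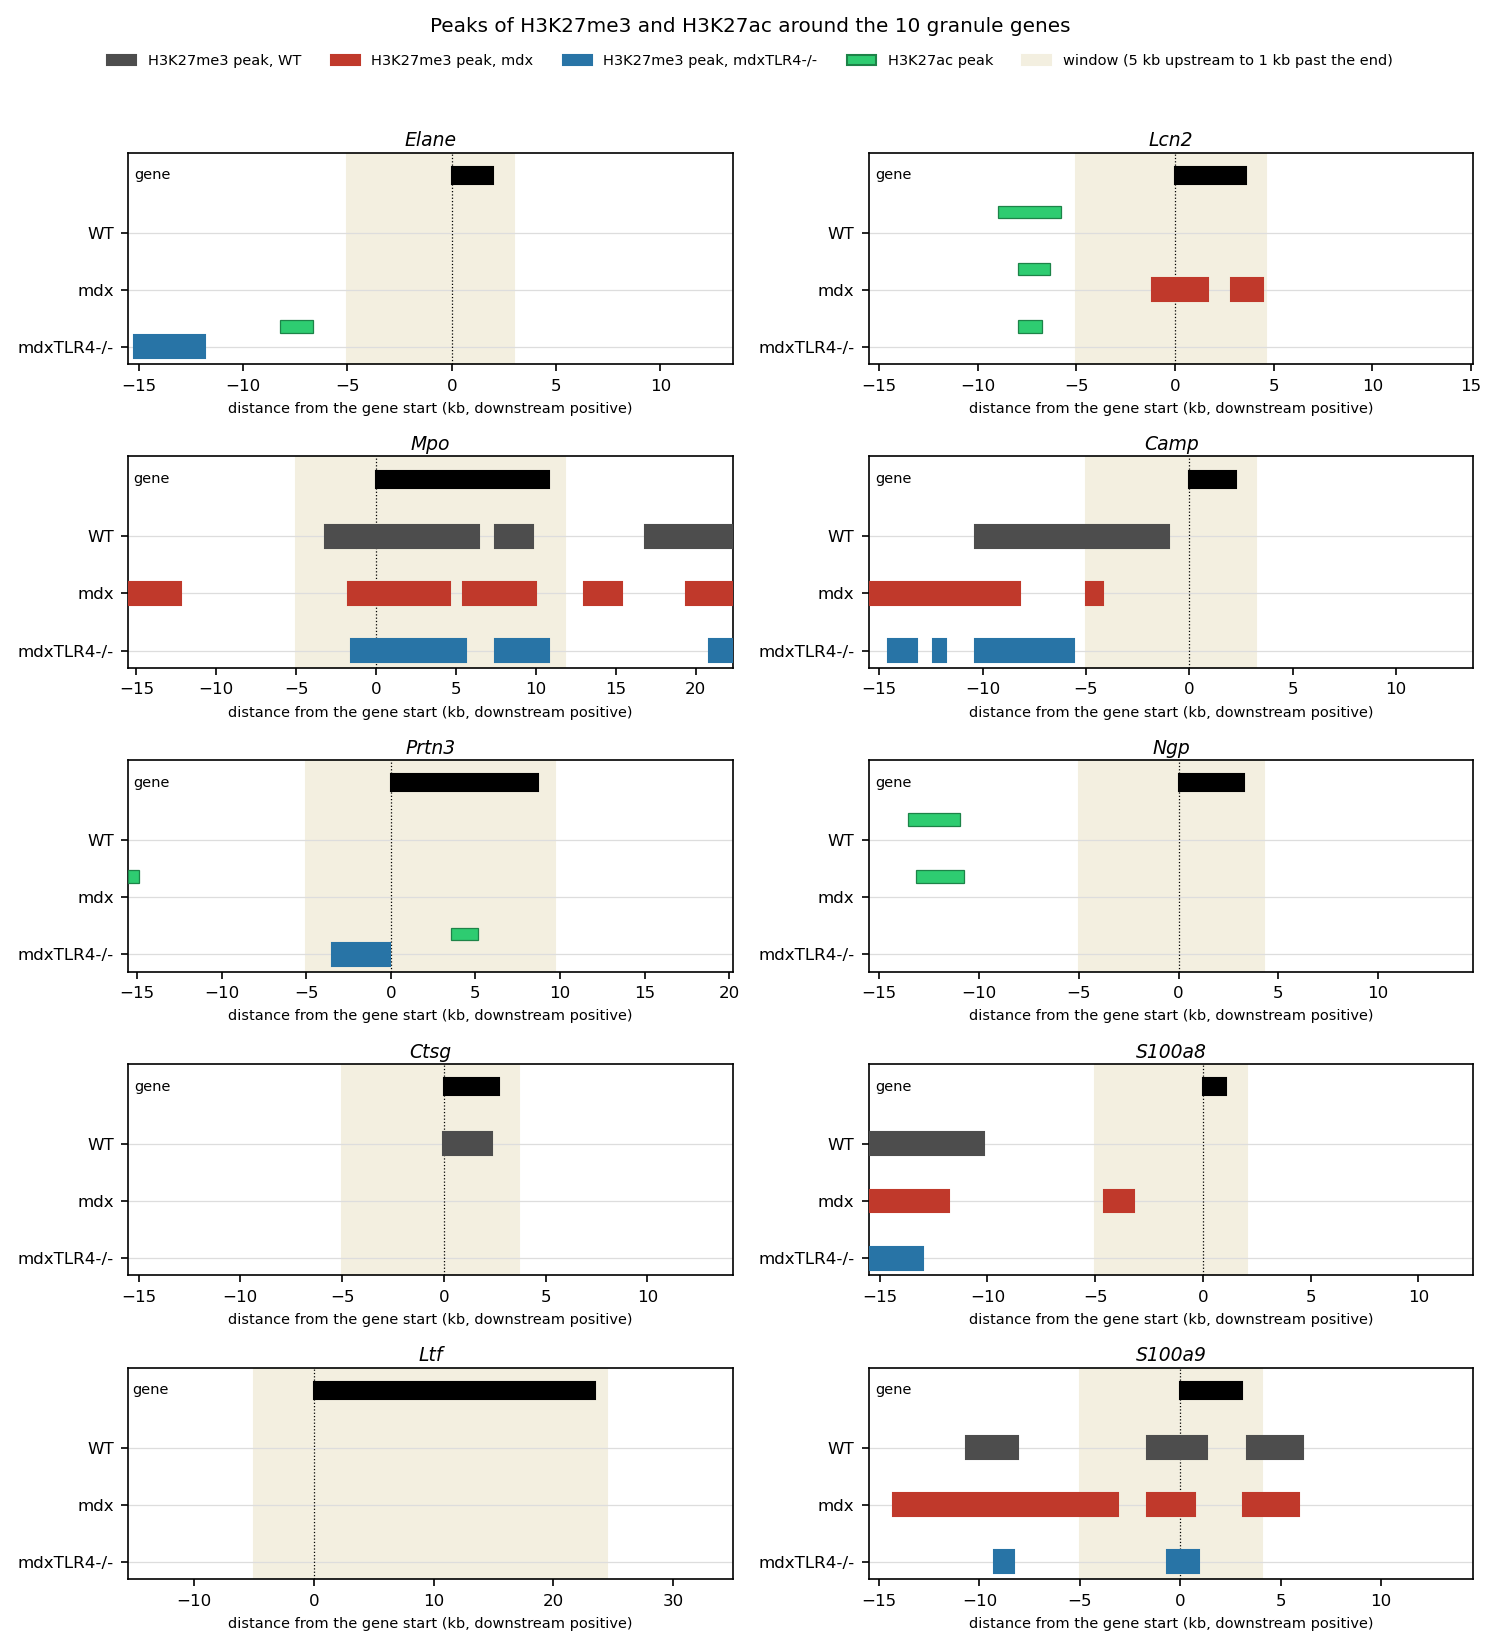
Peaks of H3K27me3 (wide bars, colored by genotype) and H3K27ac (thin green bars) around each of the 10 genes, plotted by distance from the gene start in kb with the gene body in black and the window shaded; peaks within 10 kb of a window are drawn and are clipped at the panel edge. Mpo and S100a9 had a peak over the start in all 3 genotypes, the H3K27me3 peaks within the windows of Lcn2, Ctsg, S100a8 and Prtn3 were called in 1 genotype each, and Ltf had no peak in the region drawn.

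The start of the gene lay under an H3K27me3 peak for Mpo, Ctsg and S100a9 in WT BMDM (23.5% of protein-coding genes), for Mpo, Lcn2 and S100a9 in mdx BMDM (23.8%), and for Mpo and S100a9 in mdxTLR4-/- BMDM (22.7%). At least 50% of the window was under peaks for Mpo alone in WT BMDM (16.6% of protein-coding genes), for Mpo and S100a9 in mdx BMDM (16.3%), and for Mpo alone in mdxTLR4-/- BMDM (14.9%). The mean coverage over the 10 windows was 18.9% (WT), 19.9% (mdx) and 10.4% (mdxTLR4-/-), beside means of 17.6%, 17.4% and 16.0% over all protein-coding genes. With equal numbers of peaks from each list the means were 18.9%, 11.2% and 10.4%, beside 17.6%, 15.6% and 14.9% over all protein-coding genes. With a minimum density of 1.5 times the 1st percentile the means were 10.4%, 11.2% and 8.06%, beside 15.0%, 15.0% and 14.3%. In WT and mdx BMDM the mean thus lay above or below that of all genes depending on the setting.

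**Figure D2:**
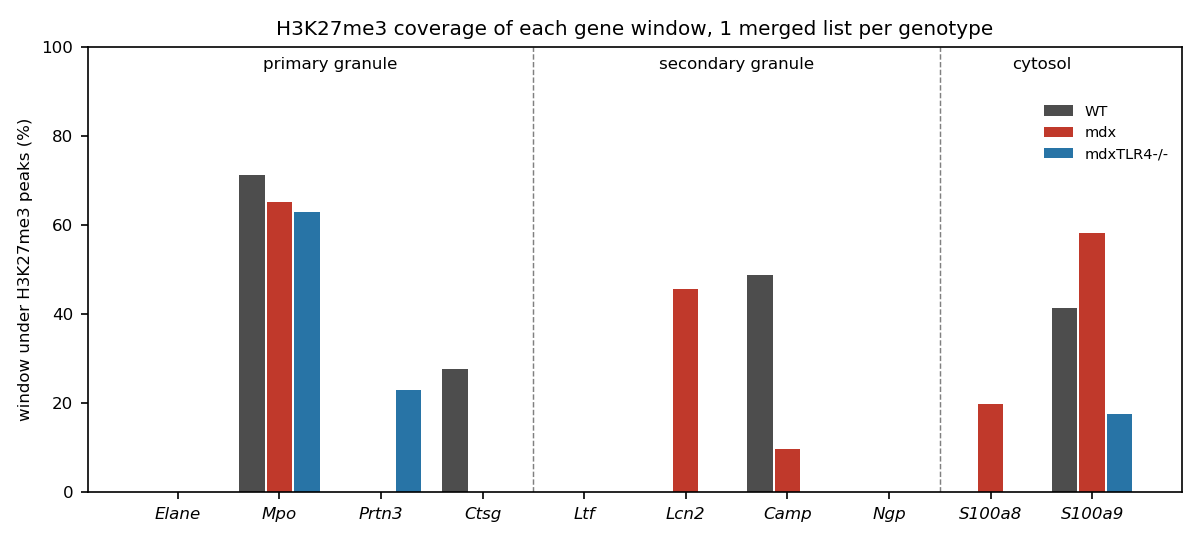
Share of each gene window under H3K27me3 peaks, in percent, for WT, mdx and mdxTLR4-/- BMDM, with 1 bar per merged peak list and no error bars because each genotype has 1 list. Mpo lay between 63.0% and 71.3% in all 3 genotypes, whereas Lcn2 and S100a8 stood above 0% in mdx BMDM alone, Ctsg in WT BMDM alone and Prtn3 in mdxTLR4-/- BMDM alone.

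Of the primary granule genes, Mpo carried the broadest mark. Mpo (chr11:87793581-87804413, plus strand) encodes myeloperoxidase, which makes hypochlorous acid from hydrogen peroxide. In WT BMDM a peak of 281 reads ran over 9600 bp from 3.18 kb before to 6.42 kb past the start (chr11:87790401-87800000), over 9 of the 14 exons of the main transcript. In mdx BMDM the peak over the start held 254 reads in 6400 bp (chr11:87791801-87798200), and in mdxTLR4-/- BMDM 227 reads in 7200 bp (chr11:87792001-87799200). All 3 lists had a further peak over the 3′ part of the gene, with 73, 117 and 86 reads in the same order. The starts of all 4 coding transcripts lay under a peak in all 3 genotypes.

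Over the Mpo start WT BMDM had a density of 29.3 reads per kb (25.9 to 32.9), mdx BMDM 39.7 (35.0 to 44.9) and mdxTLR4-/- BMDM 31.5 (27.6 to 35.9). These stood at the 72.1, 85.1 and 79.4 percentile of density in the list of each genotype. The unscaled ratio of mdx over WT was 1.36 (1.14 to 1.61), and 1.11 once divided by 1.22, the median ratio over 17103 regions called in all 3 lists. Over both Mpo peaks the unscaled ratio was 1.14 (0.986 to 1.33), and 0.939 after that division, so its direction depended on the scaling. The ratio of mdxTLR4-/- over mdx was likewise 0.876 (0.751 to 1.02) unscaled and 1.11 relative to the shared regions. These ratios compare regions called separately and of different length, 9600 bp in WT and 6400 bp in mdx BMDM over the start, so they are not fold changes of 1 locus. The ratio for the peak over the start was chosen after seeing the data.

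Ctsg (chr14:56099881-56102574, minus strand) encodes cathepsin G, a serine protease of the same granule. It had 1 H3K27me3 peak, in WT BMDM, with 50 reads over 2400 bp (chr14:56100201-56102600), or 20.8 reads per kb (15.5 to 27.5). The peak lay over 88.1% of the gene body and 4 of 5 exons, and reached 26 bp before the start. Its density stood at the 25.5 percentile of the WT list and its read count at the 3.25 percentile. It was lost at a minimum density of 1.5 times the 1st percentile. Ctsg was the 1 granule gene with a peak in WT and none in mdx BMDM, a pattern seen at 1.92% of protein-coding genes. In the mdx and mdxTLR4-/- lists the nearest H3K27me3 peaks lay 40.0 and 40.8 kb downstream of its start, near Mcpt4, a mast cell protease gene of the same cluster.

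Prtn3 (chr10:79874476-79883174, plus strand) encodes proteinase 3 and lies next to Elane (chr10:79886247-79888215, plus strand), which encodes neutrophil elastase, and their windows overlap. In mdxTLR4-/- BMDM Prtn3 had an H3K27me3 peak of 67 reads (chr10:79871001-79874400; 19.7 reads per kb, 15.3 to 25.0). This peak ended 76 bp before the annotated gene start, which belongs to a non-coding transcript, and 5.21 kb before the first coding transcript. It lay on Plppr3, a neighbouring gene on the opposite strand. A peak in mdxTLR4-/- and none in mdx BMDM was seen at 2.03% of protein-coding genes. Prtn3 also held the single H3K27ac peak of the 10 windows, with 7 reads (2.81 to 14.4) over 1600 bp in mdxTLR4-/- BMDM (chr10:79878001-79879600). That peak ended 14 bp before the first coding transcript, over the promoter printed above. It was called from 1 ChIP library and its density of 4.38 reads per kb stood at the 24.0 percentile of its list. Elane itself had no peak of either mark in its window, and its nearest H3K27ac peak in mdxTLR4-/- BMDM was the one at Prtn3, 6.65 kb upstream.

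Of the 4 secondary granule genes, 1 (WT), 2 (mdx) and 0 (mdxTLR4-/-) held an H3K27me3 peak, beside 38.4%, 41.3% and 39.0% of protein-coding genes. With a window from 10 kb upstream the last count was 1 (Camp), beside 43.2%. Ltf (chr9:111019271-111042767, plus strand), which encodes the iron-binding protein lactotransferrin, and Ngp (chr9:110419747-110423012, plus strand), which encodes neutrophilic granule protein, had no peak of either mark in any list. With Elane they made 3 genes without any peak, a state of 23.8% of protein-coding genes. The nearest H3K27me3 peak lay 25.5 to 25.9 kb upstream of the Ltf start, near Rtp3, in all 3 genotypes. At Ngp it lay 120 kb away in WT and 76.1 and 77.7 kb away in mdx and mdxTLR4-/- BMDM. Absence of a called peak does not show that reads were absent, since the lists hold called peaks only.

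Lcn2 (chr2:32384633-32388252, minus strand) encodes lipocalin 2, which binds bacterial siderophores. Its window held 2 H3K27me3 peaks in mdx BMDM and none in WT or mdxTLR4-/- BMDM. One peak lay over the start with 64 reads (chr2:32386601-32389400; 22.9 reads per kb, 17.6 to 29.2) and the other over the 3′ end with 46 reads (chr2:32383801-32385400; 28.8 reads per kb, 21.0 to 38.3). Together they took 45.7% of the window and 66.9% of the gene body. The nearest H3K27ac peak was upstream in all 3 lists, at 5.75 kb with 23 reads for WT, 6.35 kb with 19 reads for mdx and 6.75 kb with 12 reads for mdxTLR4-/- BMDM, on the side of Ptges2.

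Camp (chr9:109847379-109849617, minus strand) encodes the cathelicidin antimicrobial peptide. No peak lay over its body. In WT BMDM a peak of 179 reads ran over 9400 bp upstream (chr9:109850601-109860000; 19.0 reads per kb, 16.4 to 22.0), from 0.984 to 10.4 kb before the start, and covered 48.8% of the window. In mdx BMDM a peak of 30 reads over 800 bp (chr9:109853801-109854600) lay 4.18 to 4.98 kb before the start and covered 9.71%. In mdxTLR4-/- BMDM the window held none. The window edge decided this last count. The mdxTLR4-/- list had a peak of 100 reads at chr9:109855201-109860000, 584 bp beyond the edge, with the same far end as the WT peak. The mdx list had another of 205 reads at chr9:109857801-109865400, 3184 bp beyond it. The same upstream block was thus called in all 3 genotypes, and the stretch from 0.984 to 4.18 kb before the Camp start was called in WT BMDM alone. The WT peak stood at the 13.2 percentile of density in its list, and was lost at a minimum density of 1.5 times the 1st percentile. Between the peaks in the window, of 800 and 9400 bp, the unscaled density ratio of mdx over WT was 1.97 (1.29 to 2.91). Relative to the shared regions it was 1.62.

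The cytosolic pair differed from each other. S100a9 (chr3:90692632-90695721, minus strand) had an H3K27me3 peak over its start in all 3 genotypes, and encodes the partner of S100A8 in calprotectin. The WT peak held 71 reads (chr3:90694401-90697400; 23.7 reads per kb, 18.5 to 29.9), the mdx peak 66 reads (chr3:90695001-90697400; 27.5 reads per kb, 21.3 to 35.0) and the mdxTLR4-/- peak 38 reads (chr3:90694801-90696400; 23.8 reads per kb, 16.8 to 32.6). These intervals overlapped. The unscaled ratio of mdx over WT was 1.16 (0.818 to 1.65) over the start, and 0.954 relative to the shared regions. A peak past the 3′ end was called in WT with 57 reads and in mdx BMDM with 69 reads, over 2800 bp each, and not in mdxTLR4-/- BMDM.

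Upstream of S100a9, mdx BMDM had a peak of 322 reads over 11200 bp (chr3:90698801-90710000), which began 3.08 kb before the start and brought the window coverage to 58.2%, beside 41.5% in WT and 17.6% in mdxTLR4-/- BMDM. Both other genotypes had a shorter peak inside this same stretch, with 61 reads over 2600 bp in WT and 43 reads over 1000 bp in mdxTLR4-/- BMDM, which lay 3080 and 3280 bp beyond the window edge. The upstream mark at S100a9 thus differed between lists in called length, and was present in all 3.

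S100a8 (chr3:90668978-90670035, plus strand) had 1 H3K27me3 peak, in mdx BMDM, with 35 reads over 1400 bp (chr3:90664401-90665800; 25.0 reads per kb, 17.4 to 34.8), 3.18 to 4.58 kb before its start. It did not reach the gene. Farther upstream all 3 lists had a peak near S100a7a, of 187 reads (WT), 189 (mdx) and 79 (mdxTLR4-/-). The nearest H3K27ac peak to both genes was the one near S100a6, with 11, 8 and 6 reads in the same order, 54.6 to 55.2 kb from the S100a8 start.

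Lcn2 and S100a8 were the 2 genes with a peak in mdx and none in WT BMDM, a pattern of 4.82% of protein-coding genes. Lcn2, Camp and S100a8 were the 3 with a peak in mdx and none in mdxTLR4-/- BMDM, a pattern of 4.31%. Camp was counted here by the window edge, since the mdxTLR4-/- list had a peak 584 bp beyond it. The coverages of Camp and Lcn2 were known when the list was chosen, so neither count can be read as an enrichment. The density of each such mdx peak was placed on the scale of the list without it, through the median ratio of the shared regions. It was set beside the called peaks of like length there (within 200 bp). On the WT scale the S100a8 peak came to 20.5 reads per kb, under the lowest of 545 called WT peaks of like length (24.4). The Lcn2 peaks over the 3′ end and over the start came to 23.6 and 18.8 reads per kb on the WT scale. In that order they were at or above 0.805% and 3.28% of the WT peaks of like length. The lowest WT densities at these lengths were 22.2 and 14.6. The part of the calling limits in these differences was not tested.

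The remaining peaks were placed in the same way. The S100a9 peaks past the 3′ end, called in WT and in mdx BMDM, each came to 19.5 reads per kb on the mdxTLR4-/- scale. Both were at or above 43.1% of the peaks of like length. On the mdxTLR4-/- scale the Lcn2 peaks over the 3′ end and over the start came to 22.7 and 18.0 reads per kb. In that order they were at or above 43.1% and 29.5% of the peaks of like length. On the same scale the Camp peak came to 29.6, at or above 29.3%, and the S100a8 peak to 19.7, at or above 5.50%. The WT peak at Ctsg came to 25.4 reads per kb on the mdx scale and 20.0 on the mdxTLR4-/- scale, at or above 52.9% and 44.4%. The H3K27me3 peak at Prtn3 came to 20.5 on the WT scale and 25.0 on the mdx scale, at or above 35.7% and 45.4%, and its H3K27ac peak to 5.21 and 4.51, at or above 35.2% and 19.5%.

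**Figure D3:**
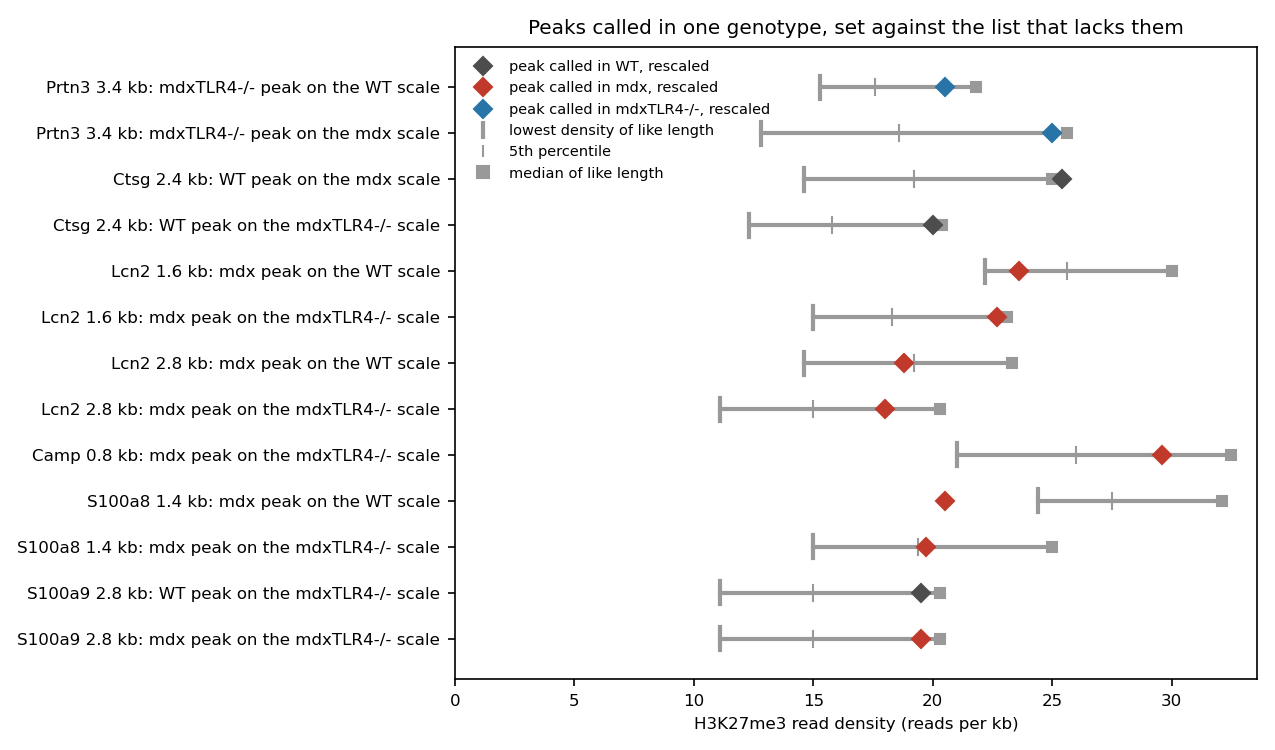
Density of H3K27me3 peaks called in some lists and absent from another (diamonds, reads per kb, on the scale of the list that lacks them). The called peaks of like length in that list are drawn from their lowest density (thick tick) through their 5th percentile (thin tick) to their median (square). The mdx peak at S100a8 lies under the lowest WT density at 20.5 against 24.4, and those at Lcn2 lie under the WT 5th percentile, whereas the WT peak at Ctsg lies near the median of both other lists.

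No start of the 10 genes lay within 5 kb of an H3K27ac peak in WT or mdx BMDM. The distance from the gene start to the nearest one ran from 5.75 kb (Lcn2) to 215 kb (Ctsg) in WT, with a median of 35.1 kb. In mdx BMDM it ran from 6.35 to 86.4 kb with a median of 36.2 kb, and in mdxTLR4-/- BMDM from 3.52 kb (Prtn3) to 216 kb with a median of 36.9 kb. The median over all protein-coding genes was 26.5, 36.7 and 34.3 kb, so the median of the 10 genes was above that of all genes in WT and mdxTLR4-/- BMDM and below it in mdx BMDM.

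As a check of the cell type, H3K27ac peaks were counted at 20 macrophage markers, and 19 of them held one in each genotype. The shares of protein-coding genes were 39.9%, 34.5% and 36.5%. An H3K27me3 peak was held by 4 of the 20 markers in each genotype, beside 38.4%, 41.3% and 39.0%. C1qc was among these 4, with 33.1%, 30.9% and 23.8% of its window covered. The markers with the most H3K27ac reads in WT BMDM were C1qc with 213, 101 and 132 reads in WT, mdx and mdxTLR4-/- BMDM, C1qb with 196, 180 and 122 and Csf1r with 180, 165 and 132, which encode complement C1q chains and the receptor of macrophage colony-stimulating factor. Reads were summed over every peak that touched a window, so genes that lie close together can share reads. Marco was the 1 marker without an H3K27ac peak, and was named after its values were seen. Of 7 B cell markers, 2, 1 and 1 had H3K27ac in WT, mdx and mdxTLR4-/- BMDM, of 7 T cell markers 0, 1 and 1, of 9 erythroid markers 0 in each genotype, and of 7 fibroblast markers 2, 2 and 3. At Tlr4 the window held H3K27ac peaks of 52, 29 and 43 reads in WT, mdx and mdxTLR4-/- BMDM and no H3K27me3 peak. The deleted part of the gene was not given in the sources used here, so this does not check the knockout.

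Other genes of the neutrophil program were counted in the same way. Of 32 further neutrophil genes, 12 (WT), 11 (mdx) and 12 (mdxTLR4-/-) held an H3K27me3 peak, beside 38.4%, 41.3% and 39.0% of protein-coding genes, and 8, 10 and 7 an H3K27ac peak, beside 39.9%, 34.5% and 36.5%. By the highest H3K27me3 coverage in any genotype the first 3 were Mmp9 (gelatinase B of the tertiary granule), with 100% of the window in all 3 genotypes, Bpi (a bactericidal protein of the primary granule), with 95.7% (WT), 89.5% (mdx) and 74.9% (mdxTLR4-/-), and Cd177 (a neutrophil surface protein), with 85.7%, 39.0% and 72.2%.

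Of 10 regulators of granulocyte genes, 7 (WT), 6 (mdx) and 6 (mdxTLR4-/-) held an H3K27ac peak, beside 39.9%, 34.5% and 36.5% of protein-coding genes. An H3K27me3 peak was held by 5, 5 and 4, beside 38.4%, 41.3% and 39.0%. Gfi1, a repressor required for granulocyte development, had 55.9%, 59.8% and 48.1% of its window under H3K27me3, and Lef1 47.8%, 51.5% and 36.8%. Cebpe, the factor of the secondary granule genes, had 21.0% under H3K27me3 with 115 reads in WT BMDM and 0% in mdx and mdxTLR4-/- BMDM. Cebpe also had H3K27ac peaks of 10 reads in WT BMDM and none in the others.

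Of 23 proteases and toxins of other granules, 14 in each genotype held an H3K27me3 peak, beside 38.4%, 41.3% and 39.0% of protein-coding genes. An H3K27ac peak was held by 1, 0 and 0, beside 39.9%, 34.5% and 36.5%. The mast cell and basophil protease genes Tpsab1, Tpsb2 and Prss34 lay under 1 domain that covered all of their windows, with 21330 reads (WT), 24126 (mdx) and 21149 (mdxTLR4-/-). Of 14 further S100 genes, 5 in each genotype held an H3K27me3 peak, beside the same shares of protein-coding genes. The first 3 by the highest coverage in any genotype were S100z (83.9%, 89.3% and 100%), S100a16 (68.5%, 84.9% and 39.5%) and S100a7a (80.7%, 63.8% and 39.4%). Of the same S100 genes 6, 5 and 4 held an H3K27ac peak, beside 39.9%, 34.5% and 36.5% of protein-coding genes.

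**Figure D4:**
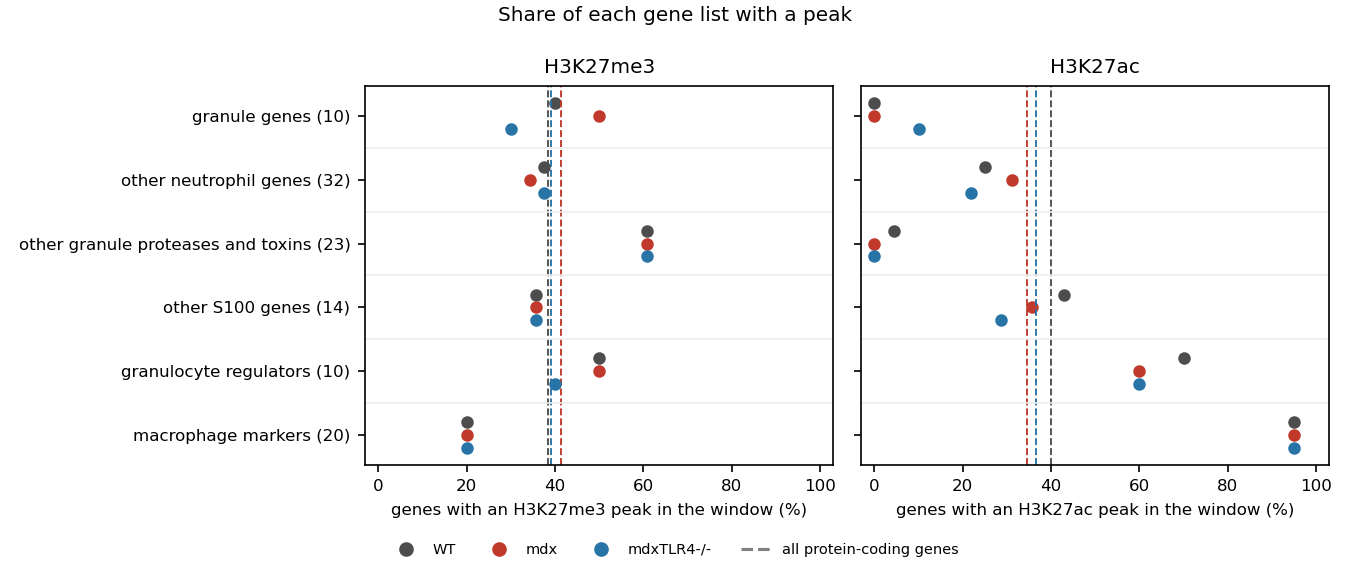
Share of the genes of each list with an H3K27me3 peak (left) or an H3K27ac peak (right) in the window, in percent, by genotype (points), with the share of all protein-coding genes as dashed lines and the number of genes in brackets. For H3K27ac the 10 granule genes and the 23 proteases and toxins of other granules have at most 1 gene marked in any genotype, as also the erythroid and T cell markers that are not drawn, and 19 of the 20 macrophage markers are marked in each genotype.

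Of 8 receptors of the granule products, 5 (WT), 4 (mdx) and 4 (mdxTLR4-/-) held an H3K27me3 peak, beside 38.4%, 41.3% and 39.0% of protein-coding genes. An H3K27ac peak was held by 2, 3 and 3, beside 39.9%, 34.5% and 36.5%. Slc22a17, a receptor of lipocalin 2, had 94.6%, 88.3% and 86.8% of its window covered. F2rl1, a receptor that serine proteases cleave, had 86.3%, 53.5% and 36.0%, and Lrp2, the megalin receptor, 12.4%, 21.5% and 13.9%. Of 14 protease inhibitors found of 15 listed, 3, 3 and 4 held an H3K27me3 peak, and 2, 4 and 1 an H3K27ac peak. The shares of protein-coding genes are those just given. Wfdc2 had 100% covered in all 3 genotypes, Serpina3n 72.6%, 79.9% and 55.9%, and Slpi, an inhibitor of elastase and cathepsin G, 21.2%, 24.6% and 17.8%.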

How the data were processed

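H3K27me3 and H3K27ac were measured by native ChIP-seq, with chromatin cut by micrococcal nuclease, in unstimulated BMDM (18 samples by the labels, with mTLR4 read as mdxTLR4-/-). The submitters' processing notes name CASAVA 1.8, cutadapt 1.15, Bowtie2 2.3.4 and SICER 2.0. Per the paper's methods for H3K27me3, reads were mapped to mm10, replicates were merged, and enriched windows of 200 bp were joined across gaps of 600 bp at an FDR below 0.01. H3K27ac was processed in the same general way, by the same methods. The deposited values are read counts, which the authors obtained per peak with SICER and left unscaled, with no input taken off. PCR copies may be included. The lists held 28143 (WT), 41780 (mdx) and 36488 (mdxTLR4-/-) H3K27me3 peaks with 8331331, 10199918 and 7358418 reads, and 15665, 12076 and 12493 H3K27ac peaks with 274020, 191629 and 168487 reads. Library depth is unknown here, and the H3K27ac lists are shallow.

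The members and the gene lists were chosen with earlier results of these data known. Starts were converted to 1-based positions. A gene window ran from 5 kb upstream of the body to 1 kb past its end. Read densities were compared as ratios with exact Clopper-Pearson intervals, and single densities carry exact Poisson intervals. With 1 list per genotype no test was run. Density was rescaled in 3 ways: per 1000000 reads in peaks, against the 1st percentile density of each list, and against the median ratio of regions called in all 3 lists. Named genes were the 10 members, neighbours that share a peak with them, the 3 genes of each list with the highest H3K27me3 coverage (for macrophage markers, the most H3K27ac reads in WT), and the 3 genes of most similar coverage. The annotation was GENCODE vM21, and promoter sequences were those of RefSeq (GRCm38.p6), with 10 of 10 members matched. The scripts were tested on simulated peak lists. Scripts ran under Python 3.11.15 with scipy 1.17.1, numpy 2.4.6 and matplotlib 3.10.9. One gene of the lists is not reported here.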

Additional observations from a re-analysis of the deposited data

How the results depend on the processing

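No paired analysis was possible because the replicates were merged before peaks were called, and leaving out a replicate was not possible for the same reason. Of 111 alternative values, 73 stayed within the limits set for no change and 38 moved. With at least 50% of the window required, the H3K27me3 counts were 1 (WT), 2 (mdx) and 1 (mdxTLR4-/-), beside 16.6%, 16.3% and 14.9% of protein-coding genes. The H3K27ac count in mdxTLR4-/- BMDM was then 0, beside 0.360%. In mdx BMDM the H3K27me3 count was 3 with the gene body alone, with 1 kb on each side of the start, and with peaks of at least 2 kb. The shares of protein-coding genes were 33.7%, 28.0% and 39.0%. A density of at least 1.5 times the 1st percentile left 2 genes in WT BMDM (Mpo and S100a9), beside 32.8% of protein-coding genes. Mean coverages were then 10.4% in WT and 11.2% in mdx BMDM, beside 15.0% over all protein-coding genes in each. Lists cut to equal numbers of peaks also gave a mean of 11.2% in mdx BMDM, beside 15.6% over all protein-coding genes. The H3K27ac peak at Prtn3 was not counted (0 genes) with 1 kb on each side of the start, with the 5 kb upstream alone, with peaks of at least 2 kb, or with at least 10 reads. The shares of protein-coding genes at these settings were 25.7%, 24.9%, 14.8% and 21.0%. The start used for Prtn3 is that of a non-coding transcript, and the peak ends 14 bp before the first coding one. A window from 10 kb upstream, chosen after seeing the data, gave H3K27ac counts of 1 (Lcn2) in WT, 1 (Lcn2) in mdx and 3 (Elane, Prtn3 and Lcn2) in mdxTLR4-/- BMDM. The shares of protein-coding genes were 42.3%, 36.6% and 38.6%. Elane and Prtn3 were counted there by the same peak of 7 reads. That window made the H3K27me3 count in mdxTLR4-/- BMDM 4, with Camp added, beside 43.2%.

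Density ratios compare separately called regions of unlike length and are not fold changes of 1 locus. For Mpo, the mdx over WT ratio of 1.14 was 0.934, 0.982 and 0.939 under scaling to reads in peaks, to the 1st percentile and to shared regions, and 1.36 for the peak over the start alone, an alternative also chosen after seeing the data. The mdxTLR4-/- over mdx ratio of 0.876 was 1.21, 1.12 and 1.11 under the same 3 scalings. For S100a9 the mdx over WT ratio of 1.26 was 1.03 under scaling to reads in peaks, and 322 of its 457 mdx reads lie in the upstream peak whose WT counterpart (61 reads) is beyond the window. Among genes with windows no longer than the longest of the 10, the share with an H3K27me3 peak was 34.8%, 36.9% and 34.7% in WT, mdx and mdxTLR4-/- BMDM, and with an H3K27ac peak 31.2%, 26.9% and 28.5%. Among all annotated genes these shares were 27.9%, 30.7% and 28.3%, and 22.7%, 19.3% and 20.2%. Depth is unknown, and the lowest count called for H3K27ac was 5 reads.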

Other observations

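The genes with the window coverage most like each granule gene over the 6 lists were read off as the smallest Euclidean distance in percentage points. Mpo lay nearest to Otop1 (1.80 points), Macrod1 (1.97) and Vwa3a (2.20), which also had H3K27me3 over most of the window in every genotype. Lcn2 lay nearest to Ccl17 (1.04), a chemokine gene with 46.8% of its window covered in mdx BMDM and 0% in the other lists, then Gm14214 (1.49) and Olfr1535 (1.51). Camp lay nearest to Ccl2 (8.37), a monocyte chemokine gene with 51.1%, 15.6% and 5.45% in WT, mdx and mdxTLR4-/- BMDM, then 1700029H14Rik (8.65) and Olfr544 (9.83). S100a9 lay nearest to Mettl7b (2.65), Ces3a (7.15) and Gm17402 (7.40). Ctsg lay nearest to Cdk5r1 (0.0516), Txndc2 (0.532) and Gm21886 (1.17), all covered in WT BMDM alone, and S100a8 to Rtl1 (0.00331), 4930447A16Rik (0.0781) and Zfp354c (0.148), all covered in mdx BMDM alone. Prtn3 lay nearest to Maged1 (7.36), Cd72 (7.63) and Ang6 (10.9). Many genes share a coverage near 0% in most lists, so a small distance says only that the called lengths are alike.

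Epx, the eosinophil peroxidase gene, was looked at after its values were seen because it encodes a peroxidase related to myeloperoxidase and lies on the same chromosome. It had 76.0%, 71.5% and 66.9% of its window under H3K27me3 in WT, mdx and mdxTLR4-/- BMDM, beside 71.3%, 65.3% and 63.0% at Mpo.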
